A study of Mus musculus with 37 samples.

Results

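The B lymphocyte genes described here are Cd79a, Cd79b, Ms4a1, Cd22, Cr2, Blk, Pou2af1 and Fcer2a. They were taken as every probe set whose platform gene symbol is 1 of these names, which gave 11 probe sets of the 22690 on the array and 8 genes of the 12393 it names. All 8 genes passed the filter on low signals. Pou2af1 was the closest to it, with a mean of 6.94 on the log2 scale against a limit of 6.71. The study measured mammary gland RNA of 37 female C57BL/6 mice, each on its own Affymetrix array, and asked how diet and voluntary running change gene expression in the gland. The mice were 9 weeks old when assigned to groups, and their intake, weight and activity were recorded over 6 weeks. The 10 AL mice ate freely, the 9 AL+EX mice ate freely and had a running wheel, the 9 CR mice were under 30% calorie restriction, and the 9 CR+EX mice had the same restriction with a wheel. Restricted mice received 70% of the calories of AL mice and the full amount of other nutrients. Left and right thoracic glands of an animal, about 60 mg each, were pooled before extraction, and the labels do not say whether lymph nodes were taken out.

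B lymphocytes recognise antigen through a membrane immunoglobulin that has almost no cytoplasmic tail of its own. Signals are passed on by Cd79a and Cd79b, whose tyrosine motifs are phosphorylated by Src family kinases such as Blk. Coreceptors such as Cd22 and Cr2 set the strength of that signal. In mice, B cells are concentrated in the follicles of spleen and lymph nodes, and lymph nodes lie within or beside several mammary fat pads. In RNA from a whole gland, fewer cells of a type and less RNA per cell cannot be told apart. The signals below are the deposited linear intensities, and a log2 level or difference is always on the scale of log2(signal + 16).

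The upstream sequences are shown because the members moved together on the arrays where they were high. The B cell factors EBF1, octamer binding proteins and ETS factors also have known binding letters. Whether the members share control through these factors was not tested. RefSeq promoters of the GRCm38.p6 build were matched for 5 of the 8 members (Cr2, Cd79a, Cd22, Fcer2a and Pou2af1), with 7 start sites in all. The last 200 bases before 4 of these starts read 5′ to 3′ as follows. Capitals mark the only match found.
Cd22, chr7:30879029-30879228, minus strand: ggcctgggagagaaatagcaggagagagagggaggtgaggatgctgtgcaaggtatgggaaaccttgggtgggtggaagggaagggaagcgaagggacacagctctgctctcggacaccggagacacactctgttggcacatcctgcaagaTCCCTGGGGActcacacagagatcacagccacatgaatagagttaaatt
Cd79a, chr7:24897297-24897496, plus strand: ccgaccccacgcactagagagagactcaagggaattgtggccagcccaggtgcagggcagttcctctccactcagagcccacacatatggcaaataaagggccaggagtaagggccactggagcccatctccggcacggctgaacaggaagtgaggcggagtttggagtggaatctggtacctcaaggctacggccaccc
Pou2af1, chr9:51213490-51213689, plus strand: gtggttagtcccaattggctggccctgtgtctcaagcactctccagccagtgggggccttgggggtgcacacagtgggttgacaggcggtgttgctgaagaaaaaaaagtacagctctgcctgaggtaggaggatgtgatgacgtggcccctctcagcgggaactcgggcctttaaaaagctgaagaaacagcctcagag
Cr2, chr1:195176720-195176919, minus strand: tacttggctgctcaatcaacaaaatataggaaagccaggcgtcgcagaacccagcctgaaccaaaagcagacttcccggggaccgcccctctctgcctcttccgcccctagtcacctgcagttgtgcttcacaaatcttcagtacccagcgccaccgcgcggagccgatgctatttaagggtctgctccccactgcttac
The motif CCCNNGGGA, bound by EBF1, was found in 1 of the 7 member promoters when both strands were searched, that of Cd22. There it matched on both strands in overlapping places, which the capitals cover together. The motif was in 4.53% of the 32851 promoters of the same length. The octamer ATGCAAAT was in 0 of 7 member promoters and in 1.38% of all, and the ETS motif GAGGAAG was in 0 of 7 and in 8.84% of all. A match is a run of letters, not a shown binding site. Only these exact letters were searched, so sites spelled otherwise were not counted, and 0 of 7 does not show that they are absent.

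The arrays fell apart by their level of these genes, and the split did not follow diet or wheel. The mean log2 level over the 8 members lay between 6.19 and 6.95 on 22 arrays and between 7.92 and 10.42 on the other 15. The empty stretch between them was 0.97 wide, against 0.55 for the next widest. The 15 high arrays were 4 of 10 AL, 4 of 9 AL+EX, 4 of 9 CR and 3 of 9 CR+EX. In order of animal number they were not evenly placed. The numbers were cut after every 24, which left runs of 2 to 22 (8 arrays), 26 to 48 (11 arrays) and 50 to 70 (10 arrays). The fourth run has 8 arrays, with numbers well above these. High arrays were 3 of 8 in the first run, 1 of 11 in the second, 3 of 10 in the third and 8 of 8 in the fourth. Outside the fourth run they were animals 8, 14, 20, 26, 54, 56 and 66. Mice of all 4 groups are in every run, but whether runs were separate batches is not stated. Inside a run the numbers go up from unrestricted to restricted mice and, for each diet, from no wheel to wheel, so the place in a run and the group cannot be told apart.

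**Figure D1:**
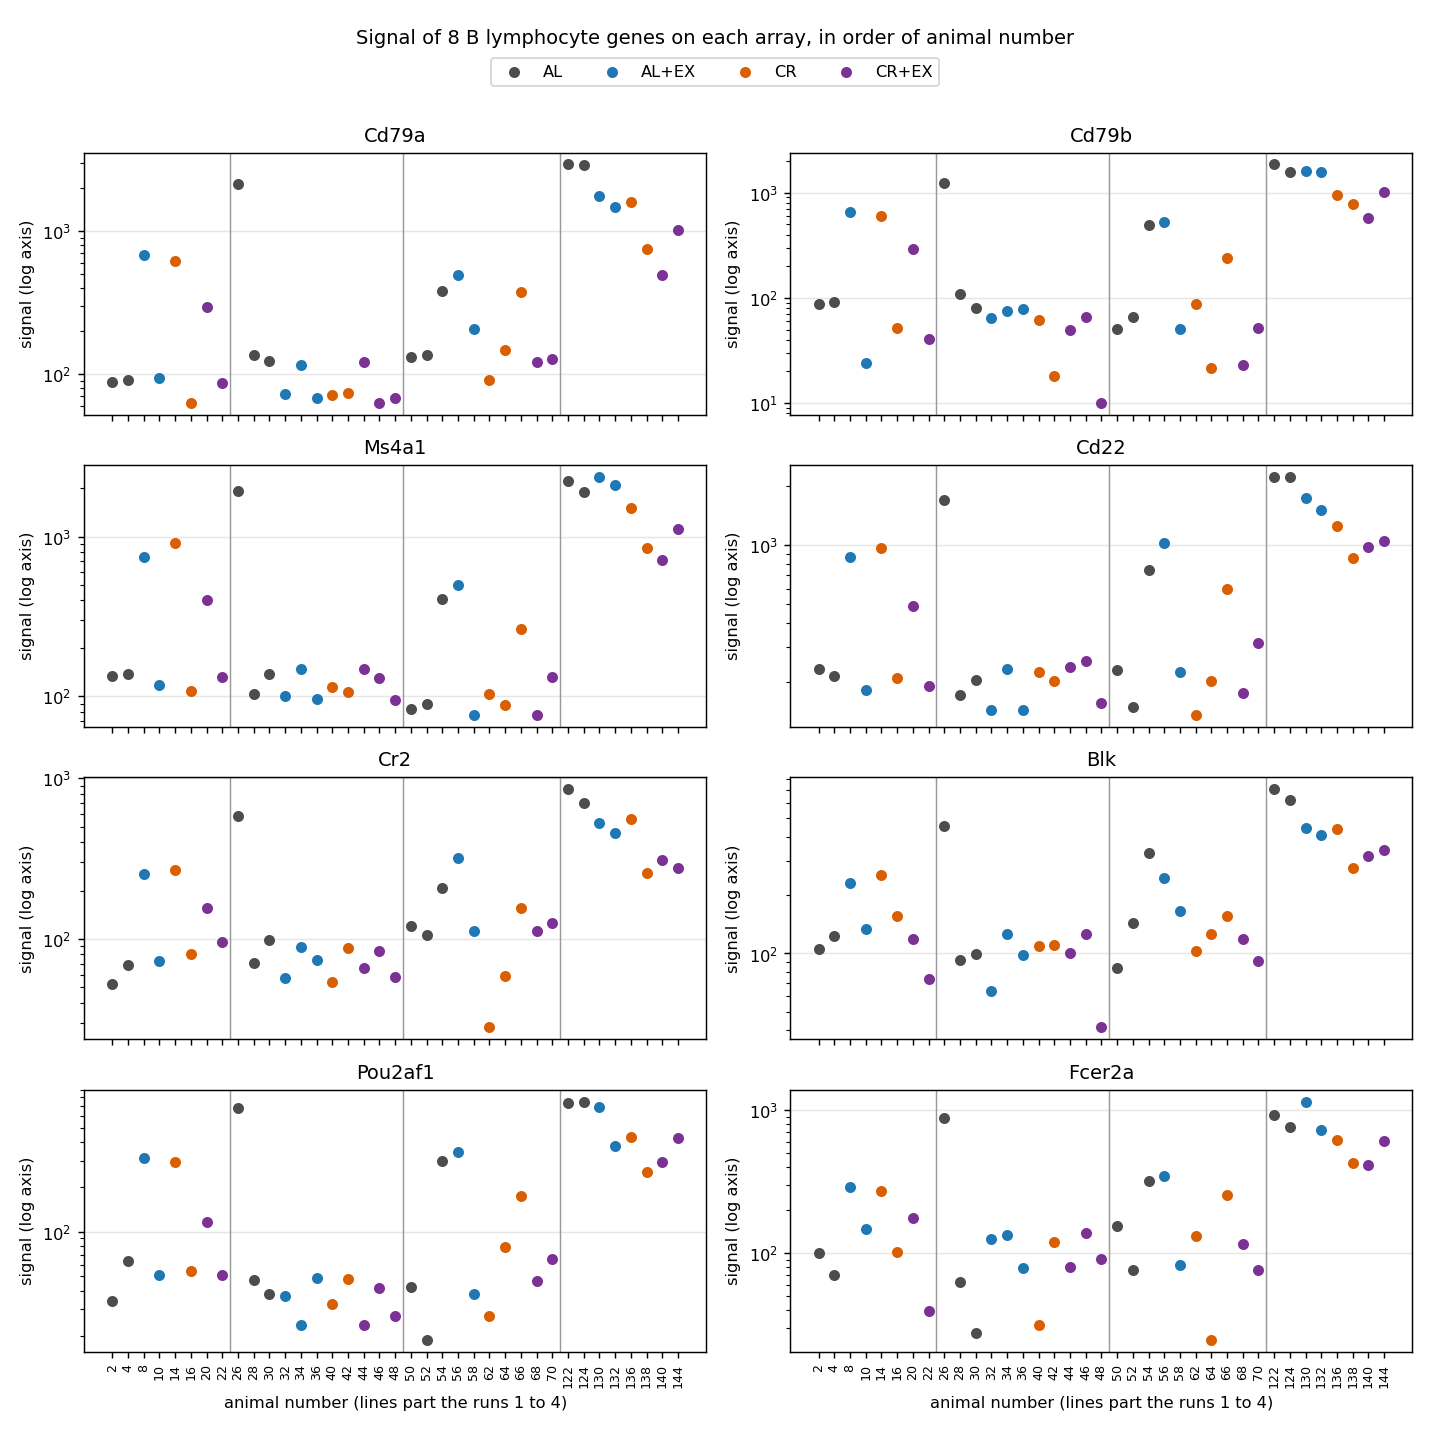
Signal of each of the 8 genes (log axis) on each of the 37 arrays in order of animal number, coloured by group, with vertical lines between the 4 runs. All 8 arrays of the fourth run are high in every panel, and outside it animals 8, 14, 26, 54 and 56 stand up from the floor in every panel, whatever their group.

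Cd79a, a signalling chain of the B cell receptor, had a signal of 87.7 at the lowest, 135.9 at the median and 2917 at the highest in AL mice. In AL+EX mice the same values were 67.9, 206 and 1752. They were 63.3, 146.2 and 1589 in CR mice and 63.1, 122.2 and 1013 in CR+EX mice. The 4 groups overlapped over most of their range, and the top array of each came from the fourth run. By run, the median was 92.5 in the first, 74.1 in the second, 141.2 in the third and 1529 in the fourth, where the lowest array was at 494.6. The array of animal 26, an AL mouse, reached 2137 in a second run whose other arrays were all among the low ones. Its partner chain Cd79b ranged from 50.5 to 1852 in AL (median 100.1), 24.2 to 1611 in AL+EX (median 78.9), 18 to 943.8 in CR (median 88.4) and 10.1 to 1015 in CR+EX (median 51.3). Again the groups overlapped. Cd79b left the clearest space between high and low arrays, with 237.7 at the lowest high array and 109.5 at the highest low one.

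Ms4a1 encodes the B cell surface protein CD20. Its signal ran from 83 to 2225 in AL (median 137.8), 76.2 to 2365 in AL+EX (median 148), 88.7 to 1506 in CR (median 113.5) and 76.5 to 1114 in CR+EX (median 132.3). Cd22, an inhibitory coreceptor that binds sialic acid, ran from 149.5 to 2235 in AL (median 231.9), 143 to 1736 in AL+EX (median 233.8), 135.4 to 1252 in CR (median 224.3) and 155.4 to 1051 in CR+EX (median 256). In both genes all medians lay among the low arrays and the groups overlapped. Cr2, the complement receptor that B cells share with follicular dendritic cells, had group medians of 112.8 (AL), 111.3 (AL+EX), 87.4 (CR) and 112.4 (CR+EX), with 28.1 and 853.5 as the lowest and highest of all arrays.

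Blk, the Src family kinase of the receptor, had group medians of 133.3 (AL), 165.2 (AL+EX), 156.5 (CR) and 118.7 (CR+EX) and a whole range of 41.4 to 707.5. It was the only member whose high and low arrays overlapped, since animal 20 had 119 and the highest low array 165.2. Pou2af1, the coactivator that works with octamer binding proteins, had medians of 55.4, 51.2, 78.6 and 50.8 in the same order of groups and a range of 18.7 to 749.9. Fcer2a, the low affinity IgE receptor CD23 of follicular B cells, had medians of 127.6, 148.2, 131.8 and 115.3 and a range of 24.8 to 1144. For 7 of the 8 genes every high array lay above every low one, though for Fcer2a the space was narrow, 176.9 against 154.4. Since the members' own mean chose the high arrays, these separations are a description.

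Among the 15 high arrays the members kept close step. Pearson's r between 2 members lay between 0.85 and 0.97 over the 28 pairs, with a median of 0.92. Among the 22 low arrays it lay between -0.28 and 0.46, with a median of 0.037, so the genes had no shared order there. These points share libraries and processing, and the values are descriptions. The high arrays also differed by run, with member means of 7.92 to 8.89 in the first, 8.06 to 8.82 in the third and 8.93 to 10.42 in the fourth. Only animal 26 of the second run, at 10.05, lay with the fourth run. The values for the high arrays pool these runs, so they include the difference between runs. On the high arrays a rise of 1 log2 unit in the mean of the other members went with a rise of 1.41 for Cd79a, 1.24 for Ms4a1 and 1.10 for Cd79b, against 0.78 for Cd22 and 0.76 for Blk. The floor on the low arrays differed between these genes. It was 63.1 to 206 for Cd79a, 76.2 to 148 for Ms4a1, 10.1 to 109.5 for Cd79b, 135.4 to 317.4 for Cd22 and 41.4 to 165.2 for Blk. The part of this floor in the slopes was not tested.

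The fourth run differed from the mean of the other 3 runs in all 8 members, with group and run both in the limma fit. Of all 9295 genes tested, 20% were called higher and 39.7% were called in either direction at an adjusted p under 0.05, so a call alone says little here and the sizes carry the result. The contrast was picked with the high arrays already known. Cd79b was 10.4-fold higher (log2 difference 3.38 ± 0.47 SE, 95% interval 5.35 to 20.3-fold, limma adjusted p = 2.1e-06). Cd79a was 8.13-fold higher (3.02 ± 0.40) and Ms4a1 7.89-fold higher (2.98 ± 0.39). By the brightest probe set of each gene, these lead genes are the receptor's signalling chains and CD20. The order depends on the probe set. Fitted on their own, the second probe sets of Cd22, Ms4a1 and Fcer2a had log2 differences of 3.45, 2.67 and 2.66. Pou2af1 was 5.51-fold, Fcer2a 5.08-fold, Cd22 4.67-fold, Cr2 3.91-fold and Blk 3.05-fold higher, with limma adjusted p from 8.8e-07 to 1.3e-05 over the 8 genes. Pou2af1 passed the filter on low signals only through the fourth run, since its mean over the other 29 arrays was 6.41 against the limit of 6.71. It had to be higher there, and its value is a description. The other 7 members lay above the limit outside the fourth run too, but those 29 arrays include high ones. On the 22 low arrays alone the means of Cd79b (6.08), Cr2 (6.54) and Fcer2a (6.64) were under the limit. These 3 passed the filter only through arrays where they are high, so their values are descriptions too. The median log2 difference was 2.40 for the 8 members and 0.015 for all genes tested.

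**Figure D2:**
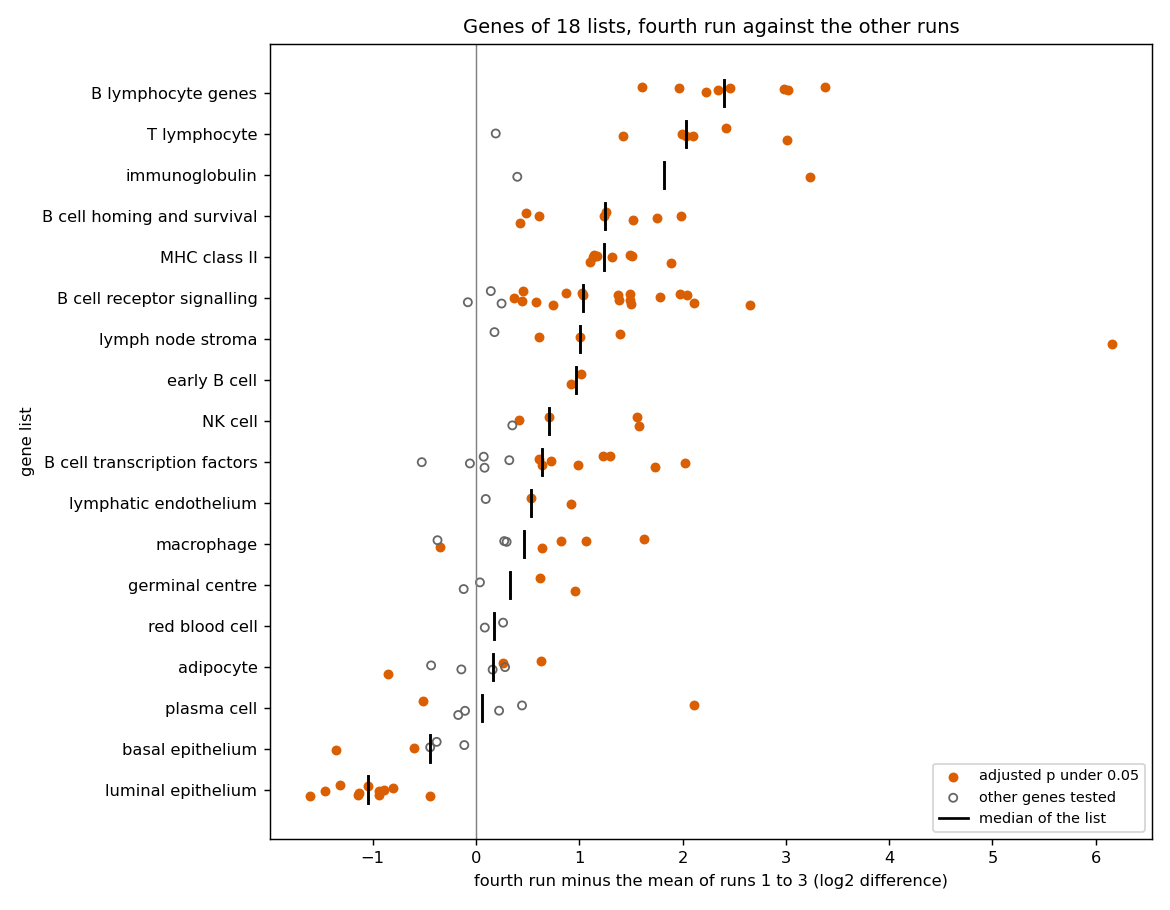
Log2 difference of the fourth run from the mean of runs 1 to 3 for each gene tested in the 18 lists (1 point per gene, filled where the adjusted p was under 0.05), with a bar at each list's median. The 8 B lymphocyte genes lie between 1.61 and 3.38, and the 11 luminal epithelium genes all lie below 0.

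Many genes of other B cell lists were also called higher in the fourth run, where 20% of all genes tested were. T lymphocyte genes were higher too (median 2.03), so these lists do not assign the shift to B cells alone. Of 21 B cell receptor signalling genes 18 were called higher and 0 lower, with a median of 1.04. They included Ptprc (2.65), the CD45 phosphatase, Cd72 (2.11) and Rac2 (2.05). Cd81, Bcl10 and Dapp1 were not called, and Cd81 had a log2 difference of -0.08 (limma adjusted p = 0.50). Of 13 B cell transcription factors 8 were called higher and 0 lower, led by Spib (2.02), Irf8 (1.73) and Bach2 (1.30). Ebf1, which fat cells express too, had 0.08 (limma adjusted p = 0.76) and Irf4 had -0.52 (limma adjusted p = 0.12). All 8 homing and survival genes tested were called higher, among them the BAFF receptors Tnfrsf13b (1.98) and Tnfrsf13c (1.52) and the follicle homing receptor Cxcr5 (1.76).

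Only 2 of 7 listed early B cell genes were tested, and both were called higher, beside 20% of all genes tested. The summed signal of that list overlapped, with 145.6 to 496.7 on the low arrays and 212.2 to 716.1 on the high ones. Later B cell stages gave mixed counts. Of 4 germinal centre genes 2 were called higher, Bcl6 (0.96) and Lmo2 (0.62). Of 6 plasma cell genes 1 was called higher, Jchain (2.11), and 1 lower, Xbp1 (-0.51), a secretory factor that epithelium also uses. Ighm, the IgM heavy chain, was called higher with 3.23, and Igha, the IgA heavy chain, had 0.40 (limma adjusted p = 0.060). Only 2 immunoglobulin genes were tested.

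Markers of other cell types moved with the B lymphocyte genes, and their part in the result was not tested. Of 7 T lymphocyte genes 6 were called higher in the fourth run, with a median of 2.03 and with Lat (3.01) and Cd3g (2.42) in front. The summed T lymphocyte signal was 1162 to 1860 on the 22 low arrays and 2278 to 8749 on the 15 high ones. Of 5 genes of lymph node stroma and follicular dendritic cells 4 were called higher, Glycam1 by 6.16, the B cell attractant Cxcl13 by 1.39 and Vcam1 by 1.01. Glycam1 marks high endothelial venules and is also a milk protein gene of mammary epithelium. The summed signal of that list was 1447 to 2392 on the low arrays and 2749 to 15141 on the high ones. All 8 MHC class II genes were called higher, with a median of 1.24. All 11 luminal epithelium genes were called lower, with a median of -1.05. Their summed signal was 4028 to 23260 in the fourth run, against 17326 to 33899 in the first, 13974 to 29332 in the second and 9630 to 31774 in the third, so the runs overlapped. Macrophage genes were called higher in 4 and lower in 1 of 8, NK cell genes higher in 4 of 5 and lymphatic endothelium genes higher in 2 of 3. Basal epithelium genes were called lower in 2 of 5, adipocyte genes higher in 2 and lower in 1 of 7, and red blood cell genes in 0 of 2. Over all genes tested, 20% were called higher and 39.7% in either direction, so counts near these shares say little about a cell type.

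Across the 15 high arrays the mean of each of these lists was set against the mean of the B lymphocyte genes, as a description. Fourth-run arrays and high arrays of other runs were pooled, so the values below include the difference between runs. Pearson's r was 0.97 for B cell receptor signalling, 0.96 for homing and survival, 0.94 for T lymphocytes and 0.94 for lymph node stroma. It was 0.88 for immunoglobulin and 0.65 for plasma cell genes, 0.29 for macrophages, -0.0096 for adipocytes and -0.50 for luminal epithelium. The 10 genes most like the members' mean over those 15 arrays were Was (r = 0.980), Rac2 (0.964), Spib (0.959), Il16 (0.959), Arhgap45 (0.954), Arhgap9 (0.949), Arhgap4 (0.949), Coro1a (0.947), Napsa (0.946) and Prkcb (0.945). Over the 22 low arrays their r lay between -0.22 and 0.37. Was, for example, ran from 177.2 to 780.7 on the high arrays and from 73.3 to 176.6 on the low ones.

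Neither restriction nor the wheel gave a called change in any of the 8 genes over the 37 arrays. For CR against AL 0 of 8 were called, beside 0.441% of all genes tested, and for CR+EX against AL+EX 0 of 8 beside 1.65%. For CR+EX against AL it was 0 of 8 beside 0.624%, and for CR against AL+EX 0 of 8 beside 1.97%. The averaged effect of restriction called 0 of 8 beside 8.75% of all genes. AL+EX against AL, CR+EX against CR, the averaged wheel effect and the interaction of restriction and wheel each called 0 of 8, beside 0% of all genes. At an unadjusted limma p under 0.05 these last 4 contrasts held 600, 83, 266 and 295 genes. In none of the 9 contrasts did a member reach an unadjusted p under 0.05.

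For the averaged restriction effect all 8 estimates were below 0, with a median of -0.42 against -0.024 for all genes, but each interval took in 0. Cd79b had -0.82 ± 0.60 SE (95% interval -2.03 to 0.39, limma adjusted p = 0.43) and Cd79a -0.62 ± 0.52 (-1.68 to 0.44). Blk, with the tightest interval, had -0.36 ± 0.28 (-0.92 to 0.21, limma adjusted p = 0.47). The residual SD of the members was 0.90 to 1.94 on the log2 scale, with a median of 1.44 against 0.339 for all genes, and each exceeded that of at least 97.9% of the genes tested. The averaged wheel effect had a median of -0.18 over the members.

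**Figure D3:**
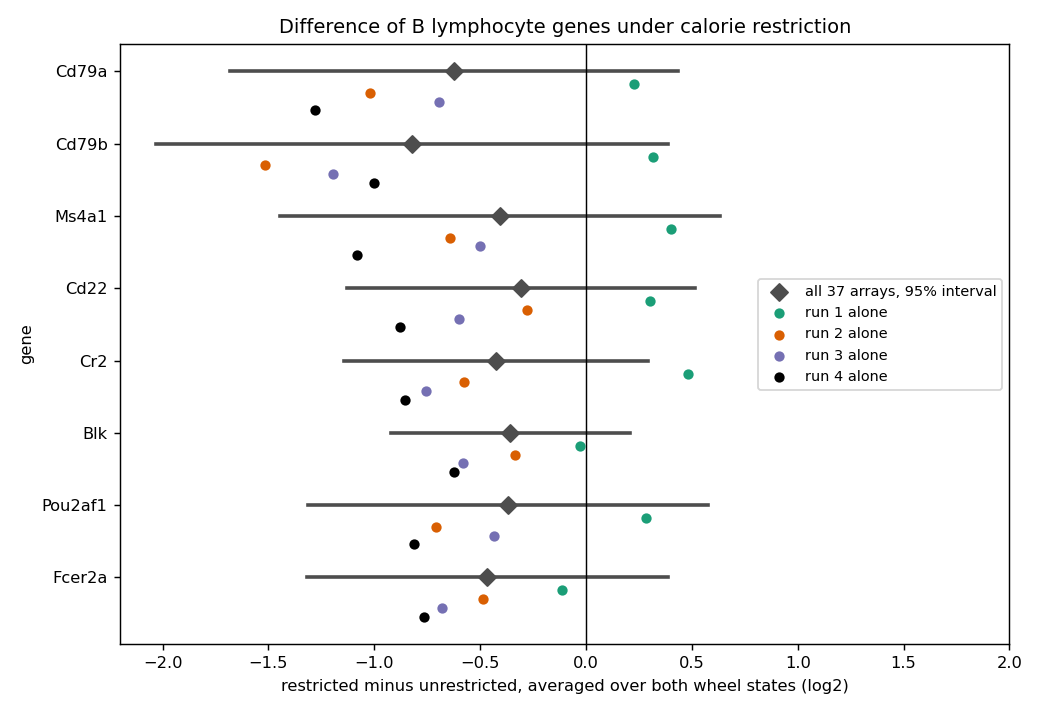
Averaged effect of restriction on each of the 8 genes (log2 difference, restricted minus unrestricted): the diamond and its 95% interval are over all 37 arrays, and the points, drawn without intervals, are the estimates within each run of animal numbers. Each interval crosses 0, all points of runs 2, 3 and 4 lie below 0, and 6 of 8 points of run 1 lie above it.

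With the run as a block the averaged restriction effect still called 0 of 8 members, beside 18.8% of all genes, with limma adjusted p from 0.11 to 0.41. Cd79a, Cd79b and Blk then reached unadjusted limma p of 0.0497, 0.0312 and 0.0331. Within single runs the members' median effect was 0.29 in the first, -0.61 in the second, -0.64 in the third and -0.87 in the fourth. The members called were 0 of 8 in the first run (beside 0.0538% of all genes), 0 of 8 in the second (0%), 0 of 8 in the third (18.2%) and 4 of 8 in the fourth (1.27% in either direction and 0.689% lower).

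The fourth run is where the members are high on every array, so its values are given in full. Cd79a had signals of 2917 and 2872 in the 2 AL mice, 1752 and 1468 in the 2 AL+EX mice, 1589 and 743.9 in the 2 CR mice and 494.6 and 1013 in the 2 CR+EX mice. Cd79b had 1852, 1563, 1611 and 1561 in the 4 unrestricted mice and 943.8, 782.7, 578.7 and 1015 in the 4 restricted ones. The unrestricted arrays were the higher ones, with 1 overlap for Cd79a and none for Cd79b. Ms4a1 had 2225, 1910, 2365 and 2092 against 1506, 847.8, 714.6 and 1114, with no overlap. Cd22 had 2235, 2235, 1736 and 1505 against 1252, 863.3, 974 and 1051, with no overlap. The 2 equal Cd22 values of the AL mice are as deposited, and the second Cd22 probe set differed between those arrays (466.7 and 470.7). In all, 4 of 8 members did not overlap between unrestricted and restricted arrays, Fcer2a being the other one, and 4 did. Of all 9295 genes tested, 4.38% had every unrestricted array of this run above every restricted one.

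In that run the restriction effect was called for Cd79a (-1.28 ± 0.26 SE, limma adjusted p = 0.0497), Cd79b (-1.0 ± 0.18, 0.041), Ms4a1 (-1.08 ± 0.21, 0.044) and Cd22 (-0.88 ± 0.15, 0.032). Cr2 had -0.85 ± 0.23, Blk -0.62 ± 0.18, Pou2af1 -0.81 ± 0.24 and Fcer2a -0.77 ± 0.21, with limma adjusted p from 0.12 to 0.15. The calls were not stable. Leaving out 1 of the 8 arrays leaves 1 array in its group, so only the effect sizes are given. They ran from -1.55 to -1.01 for Cd79a, -1.20 to -0.80 for Cd79b, -1.28 to -0.88 for Ms4a1 and -1.01 to -0.75 for Cd22. Centring each array on its median gave 0 calls, beside 54 of all genes tested (118 in the main fit). Over 8 other settings Cd79a was called in 1, Cd79b in 4, Ms4a1 in 5 and Cd22 in 6. In these settings limma adjusted p was up to 0.149 for Cd79a, and 0 to 131 of all genes were called. Where few genes were called at all, 0 members called says little about the members. The direction was below 0 for each member in 16 of 16 settings. These settings reuse the same 8 arrays, in full or without 1, so the shared sign is a description and no further support. The difference between the fourth run and the other runs in the restriction effect was itself called for 0 of 8 members (limma adjusted p from 0.755 to 0.964, beside 0.0538% of all genes).

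**Figure D4:**
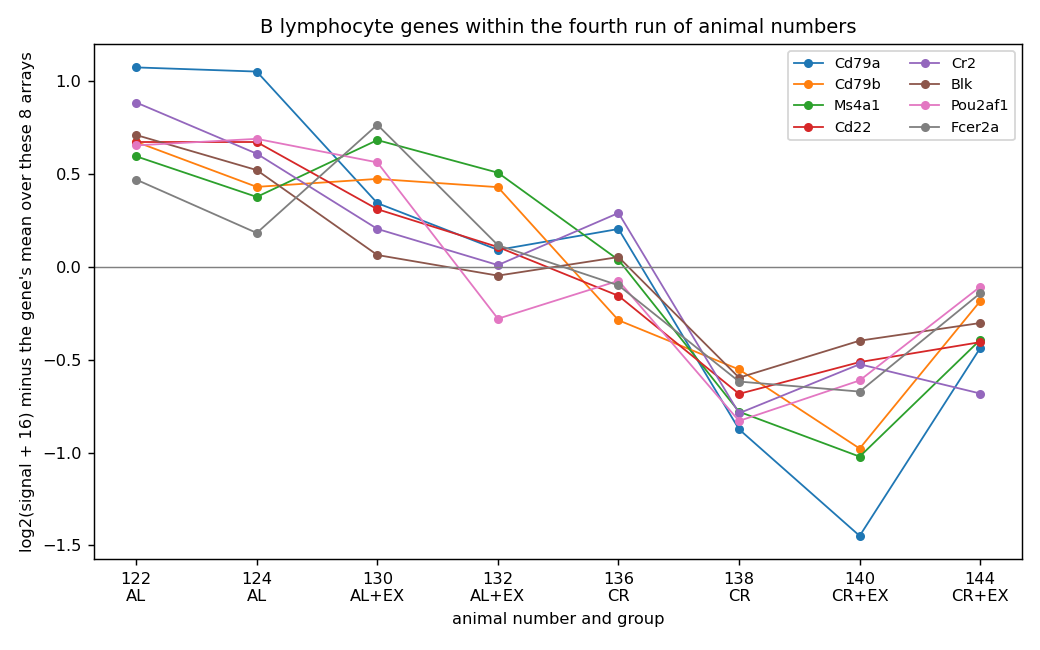
Log2(signal + 16) of each of the 8 genes minus that gene's mean over the 8 fourth-run arrays, in order of animal number, with 2 arrays for each group and lines joining the points of 1 gene. Unrestricted arrays (AL and AL+EX) lie above restricted ones (CR and CR+EX) without overlap for Cd79b, Ms4a1, Cd22 and Fcer2a.

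Some other lymphoid lists were lower under restriction in the same arrays, B cell receptor signalling and homing and survival among them. The summed signals of the remaining B cell lists overlapped between the diets. The summed T lymphocyte signal was 6979 to 8749 in the 4 unrestricted mice of the fourth run and 3917 to 5237 in the 4 restricted ones. For lymph node stroma it was 10157 to 15141 against 4502 to 7389, and for MHC class II genes 30343 to 33702 against 14683 to 23371. B cell receptor signalling had 19593 to 22628 against 13420 to 16438. Homing and survival had 5619 to 7063 against 3698 to 4744, and NK cell genes had 1300 to 1766 against 1026 to 1200. Of all genes tested in this run, 0.689% were called lower and 1.27% in either direction, with a median difference of -0.0045. Called lower were 3 of 7 T lymphocyte genes (median -0.79), 4 of 21 B cell receptor signalling genes (median -0.56), 1 of 8 MHC class II genes and 1 of 5 stroma genes. Among the B cell lists, 0 of 2 immunoglobulin (median 0.019), 0 of 6 plasma cell (0.11), 0 of 2 early B cell (0.058) and 0 of 4 germinal centre genes (-0.10) were called. Of 13 B cell transcription factors 0 were called lower and 1 higher (median -0.25), and of 8 homing and survival genes 1 was called lower (median -0.57). The summed immunoglobulin signal was 5570 to 9218 in the unrestricted and 3597 to 11533 in the restricted mice, which overlap. Luminal epithelium genes had a median of 0.067 with 0 of 11 called. The part of these shifts in the members' difference was not tested, and animal order and diet cannot be told apart here.

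A second, dimmer probe set exists for Cd22, Ms4a1 and Fcer2a, and it gave a further view of the high arrays. The second Cd22 probe set reached 16.8% to 36.5% of the brighter one's signal on the 8 fourth-run arrays (median 21.0%) and 1.62% to 18.8% on the 7 other high arrays (median 6.60%). On animals 20 and 66 the second Cd22 probe set read 7.9 and 19.7, inside its range of 2.4 to 23.4 on the low arrays. The second Fcer2a probe set reached 17.4% to 48.9% (median 22%) against 2.82% to 21.2% (median 4.66%). For Ms4a1 the ranges overlapped widely, 9.55% to 20.7% against 4.61% to 33.9%, with medians of 13.3% and 13.8%. The one array outside the fourth run that lay with it for Cd22 and Fcer2a was that of animal 26.

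For Fcer2a the other high arrays, apart from animal 26, also had a dimmer brighter probe set (176.9 to 347.6, against 412.4 to 1144 in the fourth run), so like levels could not be compared. On those arrays its second probe set read 7.5 to 20.6, inside its range of 3.3 to 57.3 on the 22 low arrays, so the lower percentages are set by a floor and are no measured share. The offset for Cd22 was present at like levels of the brighter probe set. On 3 fourth-run arrays with a brighter signal of 863.3 to 1051 the second probe set read 165.7 to 249, and on 3 arrays of other runs with 870.3 to 1023 it read 57.4 to 78. This window of 850 to 1100 was chosen after the values were seen. The ratio of Gapdh 3′ to 5′ signal, a measure of RNA integrity, was 0.75 to 0.87 on the fourth-run arrays, 0.83 to 2.62 on the 7 other high arrays and 0.88 for animal 26. Animal 8 of the first run and 1 CR+EX array of the fourth run both had a ratio of 0.834. Their second Cd22 probe set read 57.4 (6.60% of the brighter one, at 870.3) and 249 (23.7%, at 1051). This is 1 pair of arrays, and the part of RNA integrity in the offset was not tested. Fitted on its own among 20380 probe sets, the second probe set was called higher in the fourth run for Cd22 (log2 difference 3.45), Ms4a1 (2.67) and Fcer2a (2.66), with limma adjusted p of 2.0e-08, 8.5e-06 and 1.0e-08. In that fit 20.7% of all probe sets were called higher and 33.2% in either direction.

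**Figure D5:**
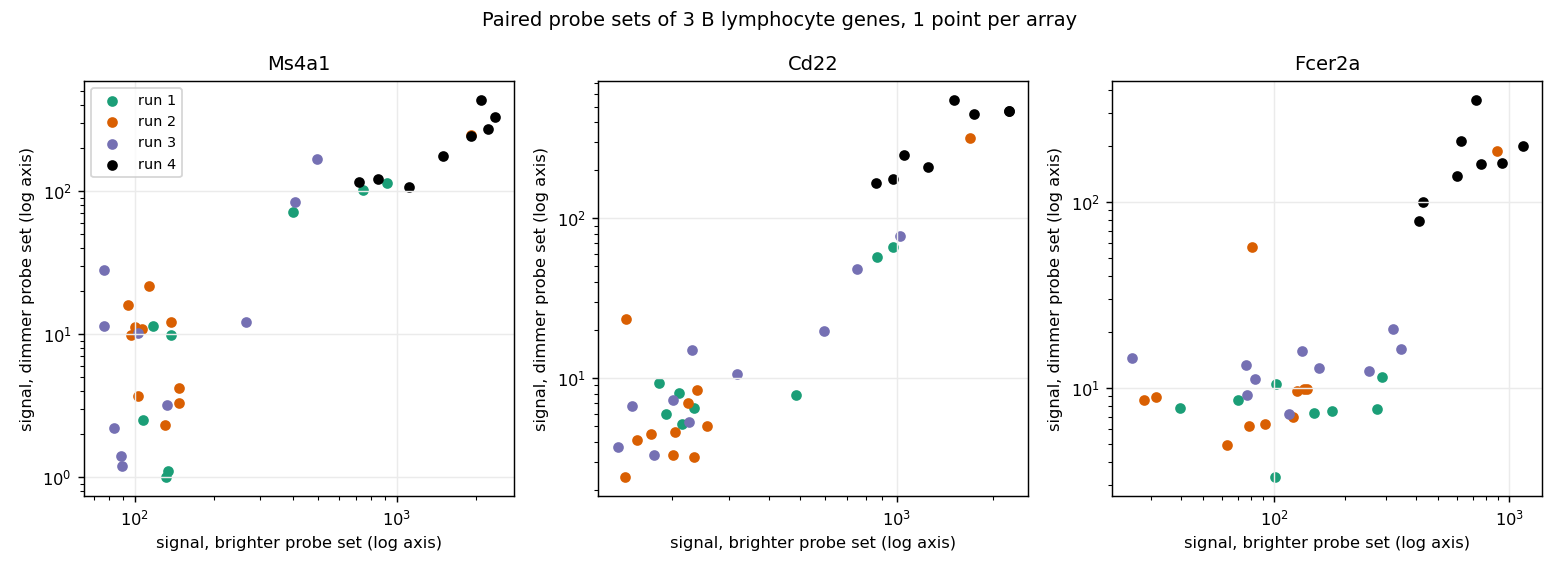
Signal of the dimmer second probe set against the brighter probe set of Ms4a1, Cd22 and Fcer2a (log axes), 1 point per array, coloured by run. For Cd22 the 3 fourth-run arrays at 863.3 to 1051 on the horizontal axis lie above the 3 arrays of other runs at 870.3 to 1023, and for Fcer2a the high arrays of the fourth run lie both to the right of and above those of runs 1 and 3.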

How the data were processed

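Each of the 37 arrays gave 1 intensity per probe set, deposited by the authors as a linear Affymetrix signal. GCOS version 1 is named per the submitters' processing notes, while the algorithm behind the signal and any detection calls are not stated there. The mean after trimming 2% at each end was 500.165 to 500.23 on every array, so no scaling was added. Symbols came from the platform table, checked by Entrez ID. There were 20380 probe sets with 1 gene, 691 with several, 1555 with none and 64 controls. The brightest probe set stood for a gene, and the 25% of genes with the lowest mean (signal under 88.7) were left out, which left 9295.

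Differences were tested on log2(signal + 16) with limma 3.58.1 in R 4.3.3 (lmFit, eBayes with trend), two-sided, with Benjamini-Hochberg adjustment over all 9295 genes and calls at 0.05. Group means were fitted to all arrays, and the run contrast added a run term. Fits were tested on simulated data. Arrays carry no counts, so their number limits the precision. Each array is labelled as 1 animal. The members, gene lists and contrasts were chosen with earlier results of these data known. Named genes are all members, the 10 genes most like their mean, and up to 3 called genes a direction in each list. Genes named as not called were picked after their values were seen.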

Additional observations from a re-analysis of the deposited data

How the results depend on the processing

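For the 9 group contrasts the number of members called stayed at 0 in all 37 fits without 1 array and in each of the 13 or 14 other settings run. For the fourth run against the others it stayed at 8 in all 37 such fits and in 9 of 10 other settings. It was 2 with the lowest 50% of genes left out, where only Cd22 and Ms4a1 remained tested. In the main fit of that contrast 39.7% of all genes were called, and 20% of all genes were called higher. The contrast was picked with the high arrays known. Cd79b, Cr2, Fcer2a and Pou2af1 passed the filter only through arrays where they are high. The unchanged count is therefore a description and no further support. The averaged restriction effect turned above 0 within run 1 for Cd79a (0.23), Cd79b (0.32), Ms4a1 (0.40), Cd22 (0.30), Cr2 (0.48) and Pou2af1 (0.28), and over the 22 low arrays alone for Ms4a1 (0.011), Cd22 (0.093) and Pou2af1 (0.11). The cause was not tested. The settings for the restriction effect within the fourth run were added after seeing the data. Its 4 calls stood beside 118 of all genes tested. They became 1 with no filter on low signals (37 of all genes) and 2 with the mean of a gene's probe sets (53). Arrays centred on their median gave 0 (54). With no trend in the variances they became 0, where 0 of all genes were called. They were 3 with a pseudocount of 1 (95), 3 with quantile normalization (74) and 3 with restricted against unrestricted arrays as 2 groups (75). With a pseudocount of 64 they stayed at 4 (131). Counts without 1 array are not given, since a group then holds 1 array. Member counts that fall with the count of all genes say little about the members. No paired analysis was possible because replicate numbers only follow the order of deposit. Signals of the second probe sets on the low arrays (Cd22 2.4 to 23.4) carry little information on order.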
